A study of Mus musculus with 10 samples.

Results

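Solute carriers are membrane proteins that move nutrients, ions and metabolites across the plasma membrane and the membranes of organelles. The genes described here are the solute carriers whose symbol has the form Slc, a family number, the letter a and a member number, without the Slc25a carriers of the inner mitochondrial membrane. The deposited table held 296 such symbols among 54343 genes. Of these, 109 reached the level rule, an FPKM (a fragment count divided by gene length and library total) of 1 or more in 5 or more of the 10 libraries. These 109 carriers were grouped by substrate class, and the other 187 are accounted for near the end. Gene symbols outside this form, such as the Slc35b or Slco genes, were not taken in by the rule.

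RNA came from cultured cells of 2 mouse lines, with 5 libraries each. MC38 is the parental line, obtained from a vendor and given the genotype "Wild type". MC38.T4, labelled "Low mesothelin expression", descends from MC38 cells that received a human mesothelin vector (huMSLN.pcDNA3.1) and were cloned as MC38.huMSLN.34. Those cells grew as tumours in C57/BL6 mice and were returned to culture, and 1 clone with low mesothelin gave MC38.T4. Both lines were kept in RPMI1640 with 10% serum and 2 mM glutamine, and no treatment was applied. Transfection, cloning and growth in a mouse cannot be told apart in this design, and every difference below is between 1 clone and its parent. The labels disagree on the tumour, with melanoma as the tissue and colon cancer in the protocol and library names. Of 7 melanocyte markers only Mitf passed the level rule and Tyr was listed at 0. Of 10 intestinal epithelial markers none passed and Cdx2 was listed at 0, so neither name has its defining markers. The intestinal list summed to 0.0567 to 0.146 FPKM in MC38 and 1.13 to 1.47 in MC38.T4. For the melanocyte list these sums were 1.19 to 1.52 and 1.85 to 2.07 FPKM. Because these are bulk samples, fewer cells with a transcript and less transcript per cell cannot be told apart.

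Amino acid carriers include exchangers, which swap one amino acid for another, and sodium-coupled symporters, which accumulate them. Several exchangers reach the cell surface only when bound to a heavy chain, CD98, encoded by Slc3a2. Glucose enters most cultured cells through the facilitative carrier GLUT1 (Slc2a1), and lactate leaves or enters through the monocarboxylate carriers MCT1 (Slc16a1) and MCT4 (Slc16a3). Zinc is brought into the cytosol by ZIP carriers (Slc39) and removed from it by ZnT carriers (Slc30). Tumour cells in general depend on such carriers for growth, and several are drug targets or carry drugs.

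FPKM summed to between 442183 and 484460 per library, the lowest in MC38 replicate 1. Read totals are not known, so counting error could not be given for single values. MC38 replicate 1 had the highest value of its line for 48 of the 109 carriers, and MC38.T4 replicate 4 for 35. The latter library also had the highest Malat1 (124.8 FPKM). Whether the 5 libraries of each line are separate cultures is not stated in the labels. The p-values therefore reflect only how far these libraries spread, and that spread may be technical. Markers of fibroblasts and pericytes summed to 28.1 to 31.5 FPKM in MC38 and 100.9 to 110.4 in MC38.T4, with 4 of 6 passing the level rule. Their part in the differences below was not tested. Of 6 leukocyte markers only Cd68 passed, Cd3e and Adgre1 were listed at 0, and the list summed to 2.65 to 3.48 FPKM in MC38 and 1.74 to 3.03 in MC38.T4. Of 4 endothelial markers none passed.

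As a share of a library's total FPKM the carriers made up 0.501% to 0.562% in the parental libraries and 0.433% to 0.449% in the subclone. Their summed level was 2413 ± 51 FPKM in MC38 and 2117 ± 39 in MC38.T4 (mean ± SD, n = 5 per line, here and throughout). Slc3a2 alone accounted for 415 of the first sum and 173 of the second. The level was at least 5 FPKM on average for 80 carriers and at least 50 for 12. Within a line the libraries were close, with a median coefficient of variation of 5.62% in MC38 and 4.78% in MC38.T4.

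For 9 carriers the lower line did not reach an FPKM of 1 in all its libraries, so their place among the 109 rested on the other line. They are described below by their values with no test. Class medians and summed levels include them, whereas counts of carriers that rose or fell do not. Of the other 100, 84 passed the test of the line difference (limma on log2(FPKM + 1), Benjamini-Hochberg adjusted p under 0.05), with 40 higher and 44 lower in MC38.T4. This share of 84.0% lay near that of all genes chosen in the same way, of which 85.7% passed, 42.1% higher and 43.5% lower. Among all 11110 tested genes 86.0% passed, 43.1% higher and 42.9% lower. The median size of a log2 difference was 0.47 over the 109 carriers and also 0.47 over all tested genes. The count of changed carriers was therefore close to the background, and what follows concerns which classes and genes they were. The lines did not overlap for 80 of these 100 carriers (80.0%), against 76.8% of all genes chosen in the same way. For each of these 80 an exact two-sided permutation test gave p = 0.00794, the smallest that 5 against 5 libraries can give. That value follows from the lack of overlap and adds nothing to it. All log2 differences are MC38.T4 minus MC38 on the log2(FPKM + 1) scale, which understates the change of low genes, whereas fold changes are ratios of mean FPKM.

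**Figure D1:**
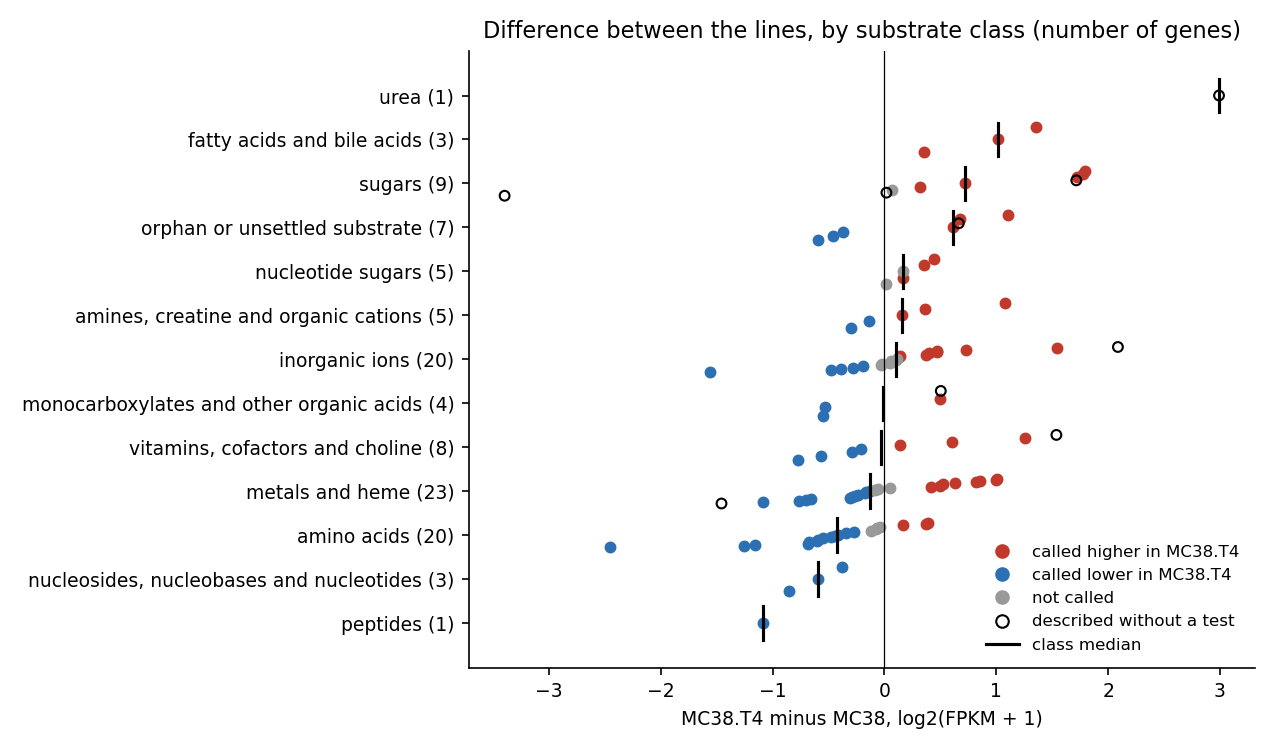
Log2 difference (MC38.T4 minus MC38, on log2(FPKM + 1)) of each carrier, by substrate class, with the class median as a bar and the carriers described without a test as open circles. Sugar and fatty acid carriers lie mostly above 0 and amino acid and nucleoside carriers mostly below. Their medians, open circles included, are 0.72, 1.02, -0.43 and -0.59 (sugar, fatty acid, amino acid, nucleoside).

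Most amino acid carriers were lower in MC38.T4. Of 20 members 13 fell, 3 rose and 4 did not pass the test, the median log2 difference was -0.43, and none was described without a test. Their summed level was 1061 ± 23 FPKM in the parent and 668 ± 31 in the subclone, with no overlap between the lines. By comparison 43.5% of all genes chosen in the same way fell.

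The heavy chain gene Slc3a2 was the most abundant carrier in both lines. It stood at 393, 414, 427, 409 and 430 FPKM in MC38 replicates 1 to 5, and at 168, 161, 163, 201 and 172 in MC38.T4 replicates 1 to 5 (the same order is used for all values below). All MC38.T4 libraries lay below all MC38 libraries, and MC38.T4 replicate 4 was the highest of its line. Slc3a2 was 2.40-fold lower in MC38.T4 (log2 difference -1.26, SE 0.05, limma adjusted p = 6.96e-12).

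The light chains that pair with it had smaller fold differences, a contrast between genes that was not tested. Slc7a5, which encodes LAT1, the exchanger of leucine and other large neutral amino acids, stood at 101.3, 92.1, 96.7, 92.0 and 95.7 FPKM in MC38 and 85.5, 90.7, 88.2, 110.4 and 93.2 in MC38.T4. The lines overlapped, with the highest and the lowest of the 10 values both in MC38.T4, and the difference did not pass (log2 difference -0.03, SE 0.06, limma adjusted p = 0.581). Without MC38.T4 replicate 4 the log2 difference was -0.10 and passed (limma adjusted p = 0.0313). Adjusted p was 0.0313 to 1 over the 19 alternatives. These include limma's treat, which tests against a fold of 1.5 rather than against no difference. Slc7a6, a light chain for basic and neutral amino acids, fell from 23.3 ± 1.3 to 16.9 ± 0.8 FPKM. The ratio of Slc3a2 to the sum of Slc7a5, Slc7a6 and Slc7a11 was 2.86 to 3.38 in the MC38 libraries and 1.42 to 1.59 in the MC38.T4 libraries, a ratio that was chosen after the values were seen.

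Slc7a11 encodes xCT, the light chain that exports glutamate in exchange for cystine. It stood at 11.3, 9.17, 8.93, 9.17 and 8.91 FPKM in MC38 and 4.98, 5.40, 5.00, 6.72 and 5.87 in MC38.T4. The lines did not overlap, with MC38 replicate 1 and MC38.T4 replicate 4 the highest of their lines. It was 1.70-fold lower in MC38.T4 (log2 difference -0.67, SE 0.08, limma adjusted p = 9.21e-07). Its promoter is shown because the gene is a known target of the amino acid response, in which ATF4 binds elements of the form TGATGNAA. The 250 bases before its start (RefSeq, GRCm38.p6, chr3:50443614-50443863, minus strand) held 2 matches, in capitals, the first on this strand and the second on the other, at 66 and 47 bases before the start.
Slc7a11: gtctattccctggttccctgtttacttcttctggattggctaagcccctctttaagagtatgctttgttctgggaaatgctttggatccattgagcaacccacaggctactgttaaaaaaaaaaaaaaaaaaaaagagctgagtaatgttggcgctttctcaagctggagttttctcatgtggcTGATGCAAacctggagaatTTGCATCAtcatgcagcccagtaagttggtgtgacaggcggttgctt
A match to TGATGNAA on either strand was found in 3.45% of 32851 promoters of this length and in 3.57% of the 112 promoters of 83 carriers with an entry. It was present in promoters of 4 carriers, Slc49a4, Slc50a1, Slc7a11 and Slc9a9. Slc49a4 and Slc7a11 fell, Slc50a1 rose, and Slc9a9 is among the carriers described without a test.

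The sodium-coupled neutral amino acid carriers of the Slc38 family fell, 5 of 5, in a background where 43.5% of all genes chosen in the same way fell. Slc38a2, which encodes SNAT2, a carrier of alanine and glutamine that is known to be induced when amino acids are scarce, stood at 110.4, 105.2, 110.0, 104.3 and 107.9 FPKM in MC38. In MC38.T4 it stood at 71.9, 70.6, 72.1, 70.4 and 70.0 FPKM. The values were tight in both lines and far apart between them, 1.51-fold lower in MC38.T4 (log2 difference -0.59, SE 0.03, limma adjusted p = 3.92e-11). Slc38a7, which encodes a lysosomal exporter of glutamine and asparagine, showed the largest fall of the family, from 13.9 ± 0.17 to 5.69 ± 0.41 FPKM (2.44-fold, log2 difference -1.16, SE 0.04, limma adjusted p = 1.41e-12). The other members were Slc38a1 (61.4 to 48.3 FPKM), Slc38a6 (82.3 to 54.0) and Slc38a10 (39.6 to 29.5).

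The fall of greatest fold among the tested carriers was that of Slc6a15, a sodium-coupled carrier of branched-chain amino acids and proline. It stood at 31.1, 27.8, 28.1, 29.1 and 27.8 FPKM in MC38 and at 4.41, 4.51, 4.70, 4.24 and 4.32 in MC38.T4. The lowest MC38 library was several-fold above the highest MC38.T4 library, and the mean was 6.49-fold lower in MC38.T4 (log2 difference -2.45, SE 0.04, limma adjusted p = 2.97e-16). The other Slc6 members of this class rose. Slc6a6, the taurine carrier, went from 26.6 ± 1.5 to 35.1 ± 1.2 FPKM, and Slc6a9, the glycine carrier GlyT1, from 16.9 ± 0.7 to 19.1 ± 0.7.

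Slc1a5, which encodes ASCT2, a main route of glutamine entry in tumour lines, stood at 44.0, 44.4, 47.6, 42.4 and 51.5 FPKM in MC38 and 41.5, 41.0, 42.4, 50.2 and 44.5 in MC38.T4. The lines overlapped and the difference did not pass (log2 difference -0.07, SE 0.06, limma adjusted p = 0.317). It did pass without MC38 replicate 1 and MC38.T4 replicate 4 (limma adjusted p = 0.0375). Adjusted p was 0.0375 to 1 over the 19 alternatives, treat included. Its paralog Slc1a4, the neutral amino acid exchanger ASCT1, fell from 27.5 ± 1.1 to 19.5 ± 1.4 FPKM.

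Slc7a1, which encodes the arginine and lysine carrier CAT1, stood at 54.5, 46.0, 45.7, 43.3 and 45.4 FPKM in MC38 and 31.1, 30.8, 30.6, 34.6 and 31.7 in MC38.T4. MC38 replicate 1 and MC38.T4 replicate 4 stood above the rest of their lines, and the lines did not overlap (1.48-fold lower in MC38.T4, log2 difference -0.55, SE 0.05, limma adjusted p = 2.11e-07). Slc16a10, the aromatic amino acid carrier TAT1, fell from 8.12 ± 0.58 to 4.68 ± 0.16 FPKM. Of the proton-coupled amino acid carriers Slc36a1 fell (5.39 to 4.28 FPKM) and Slc36a4 rose (1.90 to 2.74). The lysosomal cationic amino acid exporter gene Slc66a1 (4.05 and 3.65 FPKM) and the vesicular glutamate carrier gene Slc17a7 (1.24 and 1.12) did not pass, though Slc17a7 did without MC38 replicate 2 (limma adjusted p = 0.0494).

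**Figure D2:**
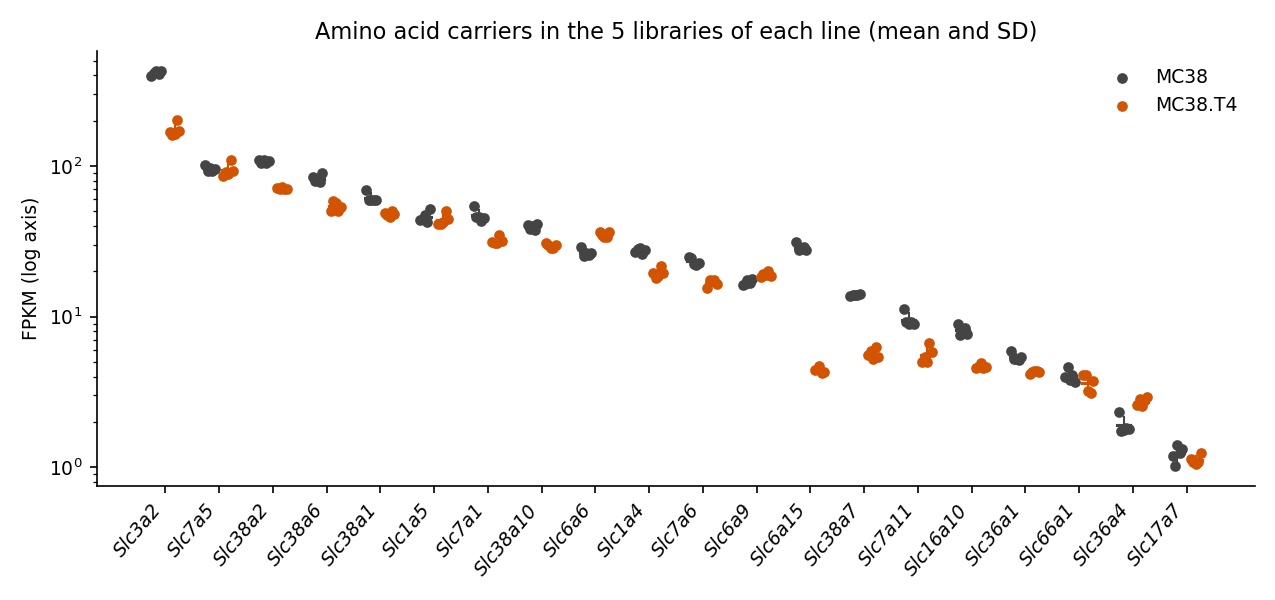
FPKM (log axis) of the 20 amino acid carriers in each library, MC38 in grey and MC38.T4 in orange, with lines for the mean and SD of each line. Slc3a2, Slc38a2, Slc38a7 and Slc6a15 are lower in all MC38.T4 libraries than in all MC38 libraries, whereas the values of Slc7a5 and Slc1a5 overlap.

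Most sugar carriers were higher in MC38.T4. Of 9 members 5 rose, none fell, 1 did not pass and 3 were described without a test; 42.1% of all genes chosen in the same way rose. The summed level of all 9 went from 63.6 ± 2.7 to 120.4 ± 4.0 FPKM. This sum is a description only, because it includes the 3 without a test. Among these, Slc5a4a went from 19.1 to 0.914 FPKM and Slc2a6 from 0.757 to 4.77.

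Slc2a1 (GLUT1) stood at 12.8, 14.4, 14.5, 11.96 and 14.2 FPKM in MC38 and at 45.9, 48.3, 46.4, 49.2 and 44.7 in MC38.T4. Every MC38.T4 library was above every MC38 library, and the mean was 3.45-fold higher (log2 difference 1.72, SE 0.05, limma adjusted p = 1.09e-13). Slc2a3, which encodes the related carrier GLUT3, was below the level rule and at most 0.132 FPKM in any library. The intracellular glucose carrier gene Slc2a8 rose from 2.08 ± 0.30 to 2.83 ± 0.30 FPKM.

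Slc5a3 encodes the sodium-coupled carrier of myo-inositol, an osmolyte and a precursor of phosphoinositides. It stood at 6.13, 4.72, 5.53, 5.00 and 4.94 FPKM in MC38 and 20.1, 20.9, 19.97, 21.5 and 20.9 in MC38.T4. The lines were far apart, with a 3.93-fold higher mean in MC38.T4 (log2 difference 1.79, SE 0.05, limma adjusted p = 1.42e-13). Slc50a1, the mammalian SWEET sugar carrier, stood at 5.19, 6.42, 6.32, 6.04 and 7.25 FPKM in MC38 and 22.7, 25.4, 22.9, 25.8 and 22.2 in MC38.T4. It too showed no overlap (3.82-fold higher, log2 difference 1.78, SE 0.07, limma adjusted p = 2.92e-12).

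Slc37a4, which brings glucose-6-phosphate into the endoplasmic reticulum, rose from 3.96 ± 0.19 to 7.20 ± 0.60 FPKM. Slc37a3, a lysosomal relative, stood at 11.4 ± 0.5 FPKM in MC38 and 11.5 to 12.7 in MC38.T4 and did not pass, but did without MC38 replicate 1 (log2 difference 0.09, limma adjusted p = 0.0463).

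Of the 3 sugar carriers described without a test, Slc5a4a had the widest gap. It belongs to the sodium-glucose family and is related to a glucose sensor. It stood at 19.7, 20.01, 18.8, 17.6 and 19.4 FPKM in MC38 and at 0.819, 0.796, 0.945, 0.838 and 1.17 in MC38.T4, so that only 1 MC38.T4 library reached 1. Its mean was 20.9-fold higher in MC38, the opposite direction to Slc2a1. How reads shared with its close relative Slc5a4b were handled is not known; Slc5a4b was at most 0.0324 FPKM in any library. Slc2a6, an intracellular hexose carrier gene, stood at 0.626 to 0.890 FPKM in MC38 and 4.17 to 5.09 in MC38.T4. Slc45a3 stood at 0.991 to 1.47 and 1.12 to 1.44, which overlap.

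**Figure D3:**
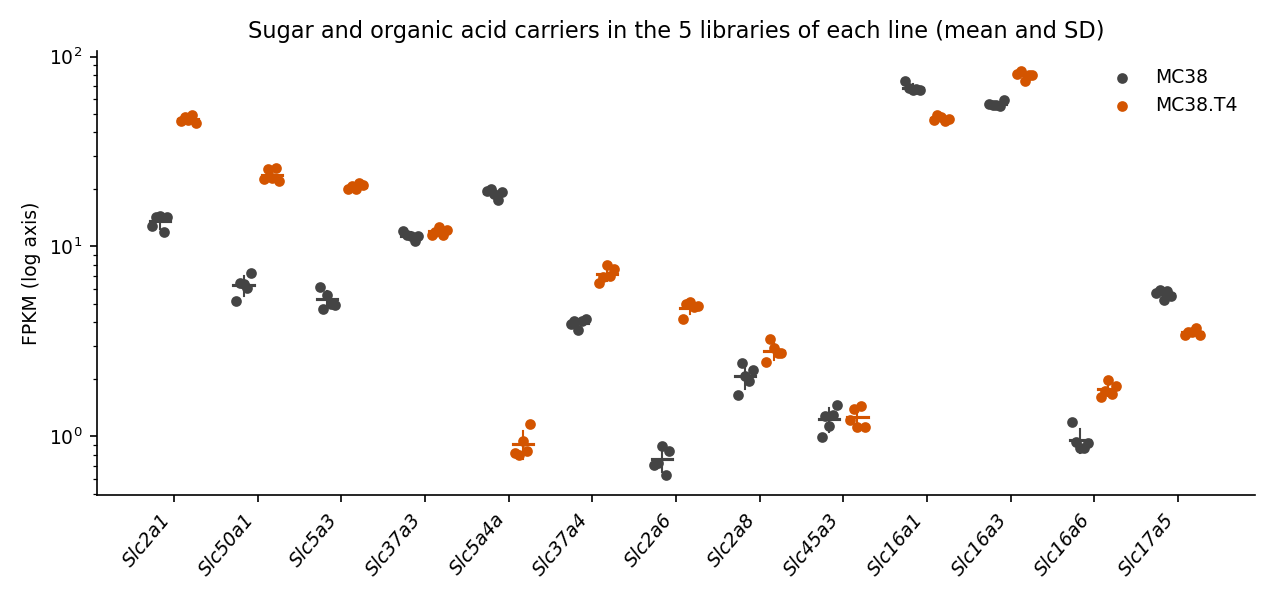
FPKM (log axis) of sugar and organic acid carriers in each library, MC38 in grey and MC38.T4 in orange, with lines for the mean and SD of each line. Slc2a1, Slc5a3 and Slc50a1 are higher in all MC38.T4 libraries, Slc5a4a is higher in all MC38 libraries, and Slc16a3 and Slc16a1 differ in opposite directions.

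The lactate carriers moved in opposite directions. Slc16a3 (MCT4), known mainly for lactate export from glycolytic cells, stood at 56.5, 55.3, 55.5, 54.7 and 58.9 FPKM in MC38 and 80.5, 84.0, 74.0, 79.8 and 79.6 in MC38.T4. No MC38 library reached the MC38.T4 range (1.42-fold higher in MC38.T4, log2 difference 0.49, SE 0.04, limma adjusted p = 4.63e-09). Slc16a1 (MCT1), which carries lactate and pyruvate in either direction, stood at 74.1, 68.5, 66.5, 67.8 and 66.3 FPKM in MC38 and 46.1, 49.4, 48.2, 45.7 and 47.1 in MC38.T4. MC38 replicate 1 was the highest of its line, and the lines did not overlap (1.45-fold lower, log2 difference -0.53, SE 0.04, limma adjusted p = 2.40e-09). The ratio of Slc16a3 to Slc16a1 was 0.762 to 0.888 in MC38 and 1.53 to 1.75 in MC38.T4, again a ratio chosen after the values were seen. Slc17a5, the lysosomal sialic acid exporter, fell from 5.63 ± 0.28 to 3.53 ± 0.12 FPKM. Slc16a6 is described without a test and stood at 0.867 to 1.20 FPKM in MC38 and 1.61 to 1.99 in MC38.T4.

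The promoters of Slc2a1 and Slc16a3 are shown because both genes rose and both are known targets of hypoxia-inducible factor, whose element has the core ACGTG, in capitals. The Slc2a1 window (RefSeq, GRCm38.p6, chr4:119108495-119108744, plus strand) held 1 match, 36 bases before the start, and the Slc16a3 window (chr11:120948817-120949066, plus strand) held 2, at 27 and 14 bases before it.
Slc2a1: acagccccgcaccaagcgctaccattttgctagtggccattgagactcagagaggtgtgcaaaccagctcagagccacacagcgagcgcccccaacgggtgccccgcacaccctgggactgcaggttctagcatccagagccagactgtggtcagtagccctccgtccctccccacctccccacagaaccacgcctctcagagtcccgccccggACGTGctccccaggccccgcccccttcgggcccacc
Slc16a3: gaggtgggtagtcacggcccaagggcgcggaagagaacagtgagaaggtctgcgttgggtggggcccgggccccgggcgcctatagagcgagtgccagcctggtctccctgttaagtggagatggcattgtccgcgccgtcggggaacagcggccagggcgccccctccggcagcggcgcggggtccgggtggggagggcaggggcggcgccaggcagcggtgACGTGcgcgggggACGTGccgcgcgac
The core, searched on both strands, was present in 16.6% of the 32851 promoters and in 25.0% of the 112 carrier promoters. The 25 carriers with a match included 9 that rose, 12 that fell and 3 that did not pass, Slc16a1 and Slc3a2 among those that fell.

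Metal carriers went in both directions. Of 23 members 8 rose, 11 fell, 3 did not pass and 1 was described without a test. Among all genes chosen in the same way 42.1% rose and 43.5% fell. The summed level was 605 ± 20 FPKM in MC38 and 594 ± 11 in MC38.T4. Of 10 ZIP genes 3 rose, 5 fell, 1 did not pass and 1 was described without a test, and of 6 ZnT genes 1 rose, 4 fell and 1 did not pass.

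Slc30a1 encodes ZnT1, the zinc exporter of the plasma membrane, and is known to be induced by zinc through the factor MTF1. It stood at 11.1, 9.89, 9.69, 10.2 and 9.19 FPKM in MC38 and 4.31, 4.48, 4.51, 3.69 and 4.02 in MC38.T4. The lines did not overlap, and the mean was 2.38-fold lower in MC38.T4 (log2 difference -1.08, SE 0.06, limma adjusted p = 6.15e-11). Its promoter is shown for the metal response element core TGCNCNCG. The window (RefSeq, GRCm38.p6, chr1:191906531-191906780, plus strand) held 1 match, in capitals, on the other strand and 44 bases before the start.
Slc30a1: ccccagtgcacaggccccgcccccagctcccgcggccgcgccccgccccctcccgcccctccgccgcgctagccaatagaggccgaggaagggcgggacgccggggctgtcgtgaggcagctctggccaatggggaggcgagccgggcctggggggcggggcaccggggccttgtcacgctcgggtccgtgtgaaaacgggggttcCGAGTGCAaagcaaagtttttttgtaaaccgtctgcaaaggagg
This core was present in 10.6% of the 32851 promoters and 15.2% of the carrier promoters. Of the 16 carriers with a match 7 rose, 7 fell and 2 did not pass.

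Slc30a4, which loads zinc into intracellular vesicles, was the most abundant metal carrier. It stood at 173.6, 144.8, 138.9, 153.2 and 135.3 FPKM in MC38 and 115.3, 121.4, 124.7, 120.2 and 116.4 in MC38.T4, higher in each MC38 library, with a 1.25-fold difference (log2 difference -0.31, SE 0.06, limma adjusted p = 0.000118). Slc30a7, which moves zinc into the Golgi, was the ZnT gene that rose (4.20 ± 0.31 to 7.04 ± 0.19 FPKM). Slc30a6 and Slc30a9 fell by less, from 10.7 to 8.78 and from 18.9 to 17.2 FPKM, and Slc30a5 did not pass (28.2 and 27.2 FPKM).

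Among ZIP genes, Slc39a13, whose product releases zinc from intracellular vesicles, rose from 8.12 ± 0.42 to 17.3 ± 0.3 FPKM (2.13-fold, log2 difference 1.00, SE 0.04, limma adjusted p = 1.79e-12). The plasma membrane importer genes Slc39a10 (4.84 to 9.56 FPKM) and Slc39a1 (39.7 to 70.7 FPKM) also rose. Slc39a6, a relative and partner of Slc39a10, went the other way. It stood at 65.9, 63.0, 63.0, 59.0 and 63.2 FPKM in MC38 and 36.8, 37.7, 36.7, 36.2 and 35.7 in MC38.T4, with no overlap (1.72-fold lower, log2 difference -0.76, SE 0.03, limma adjusted p = 9.93e-12). Slc39a3 fell from 7.19 to 4.05 FPKM, Slc39a7, the zinc channel of the endoplasmic reticulum, from 77.6 to 63.2, Slc39a11 from 21.1 to 18.7, and Slc39a14, which also carries iron and manganese, from 15.7 to 13.8. Slc39a9 did not pass. Slc39a8, a zinc and manganese importer gene described without a test, stood at 1.94 to 2.19 FPKM in MC38 and 0.0888 to 0.148 in MC38.T4.

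Slc31a1, Slc31a2, Slc11a2 and Slc48a1, which carry copper, iron or heme, rose. The copper importer gene Slc31a1 went from 24.0 ± 0.8 to 32.4 ± 1.3 FPKM, and its relative Slc31a2 from 7.14 ± 0.41 to 15.3 ± 0.6 (2.14-fold, log2 difference 1.00, SE 0.04, limma adjusted p = 7.89e-12). Slc11a2, which encodes DMT1, the carrier of ferrous iron, stood at 17.8, 17.4, 17.6, 15.8 and 17.1 FPKM in MC38 and 24.1, 25.1, 25.2, 25.4 and 25.9 in MC38.T4. The lines were fully separate (1.47-fold higher, log2 difference 0.53, SE 0.04, limma adjusted p = 2.75e-09). Slc48a1, the heme carrier of endosomes and lysosomes, rose from 42.1 to 59.8 FPKM. Slc40a1, which encodes the iron exporter ferroportin, was listed at 0 in all 10 libraries. Among the magnesium carriers Slc41a2 fell from 25.7 to 16.0 FPKM and Slc41a3 from 2.57 to 2.04, and Slc41a1 did not pass (13.0 ± 0.4 and 13.5 ± 0.2), but did without MC38 replicate 1 (limma adjusted p = 0.0498).

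**Figure D4:**
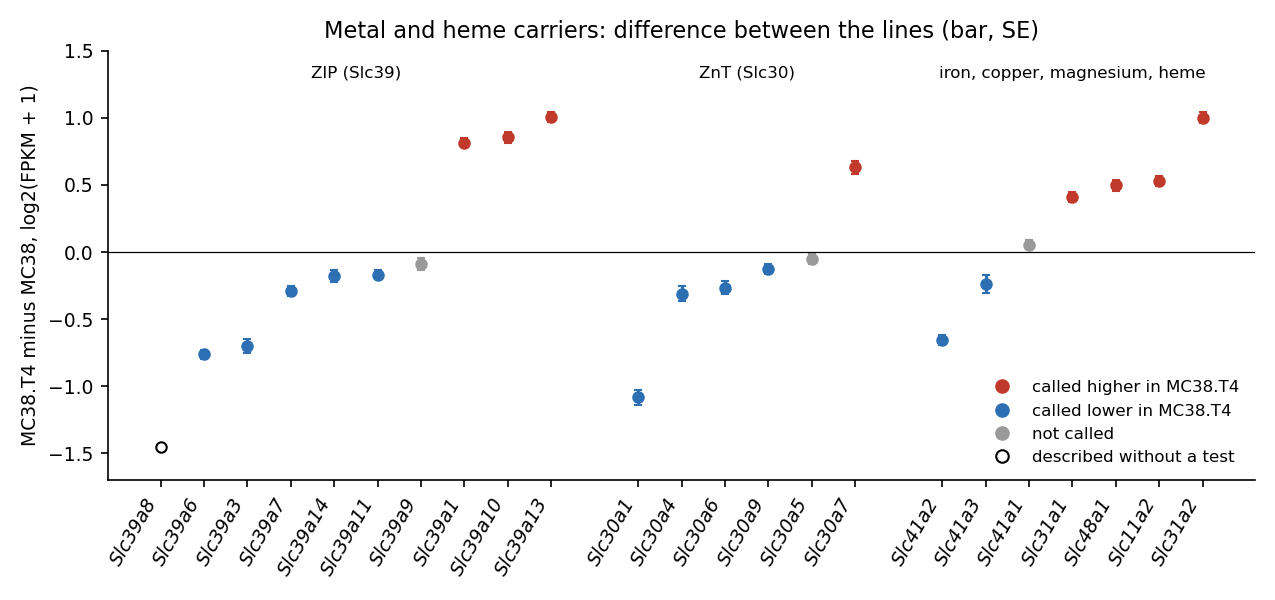
Log2 difference (MC38.T4 minus MC38, on log2(FPKM + 1)) of each metal and heme carrier, with bars for its SE, grouped as ZIP, ZnT and other carriers. Slc39a13, Slc39a10, Slc39a1 and Slc31a2 lie highest, Slc30a1 (-1.08) lies lowest among those tested, and Slc39a8 is an open circle without a bar because it was described without a test.

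Carriers of inorganic ions showed no common direction. Of 20 members 8 rose, 5 fell, 6 did not pass and 1 was described without a test, beside 42.1% higher and 43.5% lower among all genes chosen in the same way. The summed level was 206 ± 8 FPKM in the parent and 213 ± 4 in the subclone.

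Slc12a2, the sodium-potassium-chloride importer NKCC1, stood at 11.4, 10.0, 9.96, 10.1 and 9.57 FPKM in MC38 and 14.0, 13.8, 14.3, 13.0 and 13.4 in MC38.T4. MC38 replicate 1 was the highest of its line and still below all MC38.T4 libraries (1.34-fold higher in MC38.T4, log2 difference 0.40, SE 0.04, limma adjusted p = 7.49e-07). Slc12a7 rose from 10.1 to 11.1 FPKM, a call that rescaling to TPM ended (limma adjusted p = 0.0843), Slc12a9 fell from 6.75 to 4.57, and Slc12a4 did not pass.

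Slc26a11, an anion carrier found in lysosomes among other membranes, had the largest fall of the class. It stood at 11.5, 11.9, 11.7, 11.7 and 11.9 FPKM in MC38 and 3.30, 3.05, 3.07, 3.70 and 3.49 in MC38.T4. Within-line spread was small beside the gap (3.53-fold lower, log2 difference -1.56, SE 0.05, limma adjusted p = 1.01e-13). Slc26a2, the sulfate carrier, stood at 4.95 to 6.04 and 5.12 to 6.05 FPKM and did not pass, but did without MC38 replicate 1 (log2 difference 0.14, limma adjusted p = 0.00772) or MC38.T4 replicate 4 (0.13, 0.0373). Slc26a6 passed with overlapping lines (1.66 and 1.93 FPKM, limma adjusted p = 0.0399). It lost its call in 11 alternatives, treat not counted. Among them were TPM, quantile normalization and the omission of any of MC38 replicates 1, 2, 4 and 5 or MC38.T4 replicates 3 and 4. Adjusted p over the 11 was 0.0656 to 0.563 (limma or exact rank-sum test).

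Bicarbonate and proton carriers set cytosolic pH. Slc4a7, a sodium-bicarbonate importer gene, stood at 11.3, 8.16, 8.15, 8.85 and 7.51 FPKM in MC38 and 13.8, 14.7, 15.6, 16.8 and 14.8 in MC38.T4. MC38 replicate 1 lay above the rest of its line and still below all MC38.T4 libraries (1.72-fold higher, log2 difference 0.73, SE 0.09, limma adjusted p = 2.47e-06). The chloride-bicarbonate exchanger genes Slc4a2 (11.4 to 16.3 FPKM) and Slc4a3 (1.62 to 2.38) rose, and Slc4a11 (4.65 to 3.33) and the sodium-bicarbonate carrier gene Slc4a4 (2.21 to 1.81) fell. The lines of Slc4a4 overlap. With treat left aside, its call was lost without MC38 replicate 1 (limma adjusted p = 0.0602) and without MC38.T4 replicate 3 (0.0727). It was also lost with no filter and in the exact rank-sum test. The organellar sodium-proton exchanger gene Slc9a8 did not pass (7.25 and 7.11 FPKM), and Slc9a5 rose from 2.28 to 3.56 FPKM. Slc9a9, an endosomal exchanger gene described without a test, stood at 0.464, 0.455, 0.471, 0.461 and 0.533 FPKM in MC38 and 5.02, 4.74, 5.55, 5.95 and 5.21 in MC38.T4. No MC38 library reached an FPKM of 1, and the mean was 11.1-fold higher in MC38.T4. Of the sodium-phosphate importer genes Slc20a1 fell from 66.7 ± 2.9 to 54.7 ± 1.9 FPKM and Slc20a2 did not pass (16.4 and 17.1).

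The equilibrative nucleoside carriers fell, 3 of 3 (43.5% of all genes chosen in the same way fell), and their summed level went from 60.6 ± 2.6 to 43.3 ± 1.2 FPKM. Slc29a1 (ENT1), the main plasma membrane carrier of nucleosides and nucleoside drugs, stood at 43.3, 45.9, 45.6, 42.8 and 46.8 FPKM in MC38 and 33.5, 34.2, 33.8, 36.0 and 34.1 in MC38.T4. The highest MC38.T4 library stayed below the lowest MC38 library (1.31-fold lower, log2 difference -0.38, SE 0.03, limma adjusted p = 6.44e-08). Slc29a2 (ENT2), which also carries nucleobases, fell from 9.84 ± 0.94 to 6.19 ± 0.32 FPKM. The lysosomal member Slc29a3 stood at 6.24, 5.82, 5.98, 5.34 and 6.01 FPKM in MC38 and 2.94, 2.71, 2.77, 2.80 and 2.79 in MC38.T4, also without overlap and with the widest gap of the family (2.10-fold lower, log2 difference -0.86, SE 0.04, limma adjusted p = 6.73e-11).

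Nucleotide sugar carriers of the Golgi feed glycosylation, and of 5 members 3 rose, none fell and 2 did not pass. Of all genes chosen in the same way 42.1% rose and 43.5% fell. Slc35a1, the CMP-sialic acid carrier, rose from 19.1 to 21.1 FPKM in the MC38 libraries to 25.8 to 28.8 in those of MC38.T4, and Slc35a5 from 4.16 to 5.61. Slc35a3, a UDP-N-acetylglucosamine carrier gene, passed with overlapping lines (18.4 and 20.7 FPKM, limma adjusted p = 0.0152). It did not pass on rescaling to TPM (limma adjusted p = 0.119) or in an exact rank-sum test (adjusted p = 0.0652). The range over the 19 alternatives, treat included, was 0.000608 to 1. Slc35a2, the UDP-galactose carrier gene, spread widely in MC38 (3.43 to 5.82 FPKM) and did not pass (limma adjusted p = 0.137). It passed without MC38 replicate 2 (limma adjusted p = 0.00632) and without MC38.T4 replicate 4 (0.0496). The range over its 18 alternatives, treat included, was 0.00632 to 1. Slc35a4 stood at 32.3 ± 0.9 and 32.6 ± 1.8 FPKM, and its small difference changed sign with the scaling.

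Of 8 carriers of vitamins, cofactors and choline 3 rose, 4 fell and 1 was described without a test. The shares of all genes chosen in the same way were 42.1% higher and 43.5% lower. The choline carrier genes Slc44a1 and Slc44a2 rose. Slc44a1 stood at 8.59, 7.95, 7.78, 7.93 and 8.07 FPKM in MC38 and 19.4, 21.4, 21.9, 20.1 and 20.7 in MC38.T4, with no overlap (2.56-fold higher, log2 difference 1.26, SE 0.04, limma adjusted p = 2.87e-13), and Slc44a2 went from 11.8 ± 0.7 to 18.5 ± 1.3. The reduced folate carrier gene Slc19a1, which also brings methotrexate into cells, stood at 11.2, 10.2, 10.9, 11.4 and 11.4 FPKM in MC38 and 6.21, 6.23, 5.48, 6.38 and 5.90 in MC38.T4. All values of the second line were below those of the first (1.83-fold lower, log2 difference -0.77, SE 0.05, limma adjusted p = 3.13e-10). The thiamine carrier gene Slc19a2 (12.2 to 10.4 FPKM), the ascorbate carrier gene Slc23a2 (10.7 to 6.84) and the biotin and pantothenate carrier gene Slc5a6 (3.55 to 2.73) fell too, and Slc33a1, the acetyl-CoA carrier of the endoplasmic reticulum, rose from 9.47 to 10.6 and did not pass on rescaling to TPM. Slc52a2, a riboflavin carrier gene described without a test, stood at 0.646 to 0.895 FPKM in MC38 and 4.03 to 4.20 in MC38.T4.

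The fatty acid transport proteins, which couple uptake to activation of fatty acids, rose, 3 of 3 (42.1% of all genes chosen in the same way rose), and their sum went from 22.5 ± 1.5 to 46.1 ± 1.9 FPKM. Slc27a1 stood at 12.2, 12.4, 14.2, 12.7 and 14.7 FPKM in MC38 and 29.2, 28.1, 25.8, 27.0 and 28.7 in MC38.T4. The lowest MC38.T4 library was well above the highest MC38 library (2.10-fold higher, log2 difference 1.02, SE 0.05, limma adjusted p = 7.72e-11). Slc27a3 rose from 3.61 ± 0.10 to 10.8 ± 0.7 FPKM (2.99-fold, log2 difference 1.35, SE 0.05, limma adjusted p = 4.03e-13) and Slc27a4 from 5.64 to 7.49.

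Among carriers of amines, creatine and organic cations Slc45a4 rose from 5.74 ± 0.29 to 13.3 ± 0.5 FPKM and the creatine carrier gene Slc6a8 from 45.0 ± 2.0 to 50.2 ± 2.8, the latter with overlapping lines. Slc22a4 rose from 1.65 to 2.41 FPKM, whereas Slc22a5, the carnitine carrier gene, fell from 5.08 to 3.96 and Slc22a21 from 2.36 to 2.06. These 3 are near relatives, and how shared reads were divided is not known. Slc15a4, the endolysosomal carrier of histidine and small peptides, was the only peptide carrier among the 109. It stood at 13.0, 13.4, 13.6, 12.6 and 14.0 FPKM in MC38 and 5.57, 6.03, 5.71, 5.45 and 5.89 in MC38.T4, again fully separate (2.32-fold lower, log2 difference -1.09, SE 0.04, limma adjusted p = 1.34e-12).

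Carriers with no settled substrate split evenly, 3 higher and 3 lower with 1 described without a test. All genes chosen in the same way split alike, 42.1% higher and 43.5% lower. Slc22a23 went from 2.90 ± 0.16 to 7.40 ± 0.16 FPKM, Slc10a7 from 5.53 to 9.44 and Slc22a18 from 1.61 to 2.99. Slc66a2 (12.2 to 7.71 FPKM), the lysosomal gene Slc49a4 (7.53 to 5.20) and Slc10a3 (11.6 to 8.72) fell. Slc22a15, described without a test, stood at 0.835 to 1.03 FPKM in MC38 and 1.86 to 2.44 in MC38.T4.

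The urea carrier gene Slc14a1 had the most one-sided values of all 109. It stood at 0.0566, 0.0075, 0.0293, 0.0390 and 0.0276 FPKM in MC38 and at 7.06, 6.99, 8.03, 6.97 and 7.04 in MC38.T4. It entered the 109 only through MC38.T4, and no test is given for it.

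**Figure D5:**
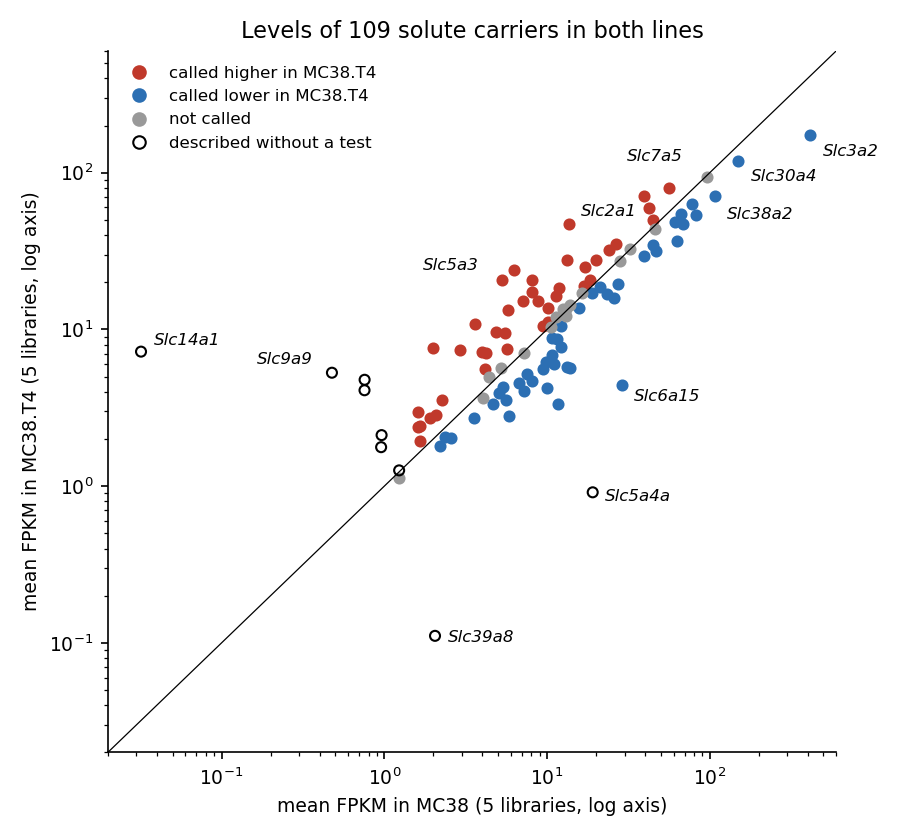
Mean FPKM of each of the 109 carriers in MC38 (x axis) against MC38.T4 (y axis), both log axes, with the diagonal of equal levels and open circles for carriers described without a test. Slc3a2 is the most abundant carrier in both lines, and Slc14a1 and Slc39a8 lie farthest from the diagonal at the low end.

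The level rule left out 187 symbols. Of these, 52 were listed at 0 in every library and 184 never reached an FPKM of 1. The other 3 came close. Slc18a2, the vesicular monoamine carrier gene, reached 1 in 4 libraries and stood at 0.905, 1.17, 1.26, 1.34 and 1.40 FPKM in MC38 and 0.50 to 0.58 in MC38.T4. Slc46a1, the proton-coupled folate carrier gene, reached it in 3 and Slc17a8, a vesicular glutamate carrier gene, in 2. The lowest means inside the rule were those of Slc39a8 (1.08 FPKM), Slc17a7 (1.18) and Slc45a3 (1.25).

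The 59 other genes looked at were chaperones and regulators of carriers, ion pumps and kinases, and genes of metal binding and uptake. Of these, 46 could be tested, and 16 rose, 22 fell and 8 did not pass. Among all tested genes 43.1% were higher and 42.9% lower. Counts per list are descriptions against that background. Bsg, the chaperone that brings MCT1 and MCT4 to the cell surface, fell from 449 ± 7 to 281 ± 8 FPKM, and Calr, a chaperone of the endoplasmic reticulum, rose from 130.2 ± 6.6 to 419 ± 13. Among 14 tested regulators of amino acid carriers and lysosomal sensing 5 rose, 6 fell and 3 did not pass. Atf4 rose from 319 ± 18 to 363 ± 21 FPKM while its known targets Ddit3 (335 to 79.5 FPKM) and Sesn2 (39.9 to 20.5 FPKM) fell. Nfe2l2, an activator of Slc7a11, fell from 82.8 to 67.6 FPKM and its inhibitor Keap1 rose from 15.5 to 26.5. Nedd4l, a ubiquitin ligase that removes carriers from the surface, fell from 21.0 to 12.6 FPKM. Nedd4, of the same list and more abundant, rose from 175 to 273.8.

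Among 6 tested regulators of glucose carriers 2 rose, 2 fell and 2 did not pass. Txnip, which promotes GLUT1 removal from the surface, fell from 128 ± 6 to 80.7 ± 9.6 FPKM, and Hif1a rose from 28.3 to 40.7 and Akt1 from 58.1 to 129. Among 8 tested ion pumps and kinases 2 rose, 5 fell and 1 did not pass. The calcium pump genes Atp2a2 (133 to 98.2 FPKM) and Atp2b1 (63.4 to 35.0 FPKM) fell, as did the chloride-proton exchanger gene Clcn3 (30.5 to 18.2 FPKM).

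Of 11 tested genes of metal binding and uptake 4 rose, 5 fell and 2 did not pass. The transferrin receptor gene Tfrc rose from 47.9 to 67.2 FPKM and the ferrireductase gene Steap3 from 12.5 to 27.8. The ferritin genes went apart, with Fth1 rising from 1481 to 2244 FPKM and Ftl1 falling from 2065 to 1043. The metallothionein gene Mt1 fell from 252 ± 27 to 120.2 ± 11 FPKM and the zinc-sensing factor gene Mtf1 from 7.05 to 5.24, while Mt2 did not pass (351 and 327). Hmox1, which breaks down heme, fell from 70.8 to 26.9 FPKM.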

How the data were processed

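Cultured MC38 and MC38.T4 cells (5 libraries each) were measured by polyA-selected, strand-specific RNA sequencing, per the labels' protocols. The authors deposited 1 table of FPKM, in which columns are libraries and rows are gene symbols. GRCm39 and DESeq2 are named in the submitters' processing notes, with no version or role; which aligner, counter and annotation were used is not given in the sources used here. Depth is unknown, so precision is given by the spread of the 5 libraries.

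Every gene that reached an FPKM of 1 in 5 or more libraries was tested on log2(FPKM + 1) with limma 3.58.1 in R 4.3.3 (trend, robust, a line term only, two-sided), Benjamini-Hochberg adjusted over all 11110 genes at a threshold of 0.05. Single genes also had an exact permutation test over 252 assignments. The 9 carriers whose pass rests on 1 line were left out of counts; the design had named only those with no library at 1 in the lower line, 5 genes, and this was widened after the values were seen. The carriers, classes, partner lists and tests were chosen with earlier results of these data known. Substrate classes were written by hand for 108 carriers; Slc14a1 was placed afterwards. Named carriers were 29 fixed ones, the 3 largest rises and falls per class at a mean FPKM of at least 2, and the most abundant of each class; further members are given by their means to account for all. Ratios, and the members named beyond this rule, were chosen after their values were seen. Promoters came from RefSeq GRCm38.p6, another build than the authors', matched by symbol for 83 carriers. Some genes that these rules pick are counted but not reported here by name. The code was tested on simulated data. Tables, permutations and figures were made with Python 3.11.15, pandas 2.3.3, NumPy 2.4.6 and matplotlib 3.10.9. The alternatives tried were no filter, a minimum mean FPKM of 5, a pseudocount of 0.1, TPM, quantile normalization, limma's treat with a fold of 1.5, exact rank-sum tests, a replicate block, and leaving out each library or the pair MC38 replicate 1 and MC38.T4 replicate 4.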

Additional observations from a re-analysis of the deposited data

Results flagged for a closer look

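In 15 of 134 groups (1 carrier in 1 line, 5 libraries each) a single library stood apart from the other 4 by Dixon's criterion (0.71 for 5 values), which chance gives in about 1 of 20 groups. MC38 replicate 1 was that library in 6 of them and MC38.T4 replicate 4 in 5.

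In MC38 replicate 1 the value was above the other 4 for Slc7a1 (54.5 FPKM, others 43.3 to 46.0), Slc7a11 (11.3, others 8.91 to 9.17), Slc16a1 (74.1, others 66.3 to 68.5), Slc12a2 (11.4, others 9.57 to 10.1), Slc36a4 (2.35, others 1.74 to 1.83) and Slc39a10 (5.21, others 4.67 to 4.81).

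In MC38.T4 replicate 4 the value was above the other 4 for Slc3a2 (201 FPKM, others 161 to 172), Slc7a1 (34.6, others 30.6 to 31.7), Slc29a1 (36.0, others 33.5 to 34.2) and Slc20a1 (58.0, others 53.3 to 54.4), and below them for Slc35a2 (4.10, others 5.06 to 5.30).

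Elsewhere, Slc14a1 was highest in MC38.T4 replicate 3 (8.03 FPKM, others 6.97 to 7.06) and Slc22a21 in MC38.T4 replicate 5 (2.16, others 2.01 to 2.05). Slc39a13 was lowest in MC38.T4 replicate 1 (16.8, others 17.4 to 17.5), and Slc9a9 was highest in MC38 replicate 5 (0.533, others 0.455 to 0.471).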

How the results depend on the processing

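Between 9263 and 9624 of the genes passed under most alternatives, and the carriers called higher numbered 36 to 42 and lower 43 to 47, except with a higher level minimum, with no filter or with treat. Under limma's treat against a fold of 1.5, 3474 genes passed, with 14 carriers higher and 9 lower. By class this left amino acids 0 higher and 3 lower, inorganic ions 1 and 1, metals 4 and 2, and monocarboxylates 0 and 0. Vitamins kept 1 and 1, amines 1 and 0, and unsettled substrates 1 and 0, with nucleosides 1 lower and nucleotide sugars 0 higher. Sugars kept 4 higher and fatty acids 2 higher. At a mean FPKM of at least 5, 7362 genes passed, and inorganic ions counted 4 higher and 3 lower, with monocarboxylates 1 lower and amines 0 lower. With no filter 12725 passed. Of 63 named carriers tested, 37 lost their call under treat and 1 (Slc35a3) elsewhere. Slc35a4, not called in any setting, had a log2 difference of -0.035 on TPM and of -0.0197 to 0.0273 when 1 library was left out (-1.51e-05 without MC38 replicate 2, -0.0197 without MC38.T4 replicate 2). None of the 84 called carriers changed sign on TPM, quantile normalization or a pseudocount of 0.1; TPM ended 4 calls (Slc26a6, Slc12a7, Slc35a3, Slc33a1) and quantile normalization 1 (Slc26a6), and Slc30a5 and Slc39a9 passed on TPM and Slc17a7, Slc66a1 and Slc39a9 on quantile normalization. The cause was not tested.

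Leaving out 1 library in turn gave 9408 to 9624 genes, 39 to 42 carriers higher and 43 to 45 lower, and leaving out MC38 replicate 1 and MC38.T4 replicate 4 together gave 9603, 41 and 45. Deviations of same-numbered libraries from their line means correlated at 0.135, 0.142, -0.128, -0.129 and 0.0139, and 2 of 5 matched best with their own number. No clear signal shared by replicate number was seen, which cannot show that the libraries were unpaired. With the replicate block 9534 genes passed, 40 carriers higher and 44 lower, and no named call changed. Unknown depth limits all low values.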
